A study of Drosophila melanogaster with 7 samples.

Results

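The 10 genes described here act late in meiotic recombination or in the checkpoint that watches over it. They were chosen by name: mei-218 and rec of the mei-MCM complex, mei-9, Ercc1 and hdm of the crossover nuclease, the anti-crossover helicase gene Blm, and the checkpoint genes mei-41, lok, Rad9 and Hus1-like. All 10 were found among the 13771 genes listed, and all 10 were among the 10514 genes that passed the count filter and were tested. Their transcripts were 20 of the 29939 listed.

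RNA came from Drosophila melanogaster ovarian cells sorted by flow cytometry for a GFP reporter under the bam promoter (bamP-GFP), which is active in dividing germline cysts. Every fly carried this reporter and the driver nos-GAL4::VP16, which expresses a hairpin RNA (shRNA) in the germline. In 4 libraries, called Atx2 KD, the hairpin targeted Atx2, the gene for the RNA-binding protein Ataxin-2. In 3 libraries, called Control KD, it targeted mCherry, a fluorescent protein used as a neutral target. The labels give no age, and do not say whether the numbered replicates were separate crosses, pools of animals or sorts, so p-values measure the spread between these libraries. Ovaries were digested at 37 °C for 30 min and live cells were sorted before RNA extraction. Each library was made from 18 ng of rRNA-depleted RNA without poly(A) selection. The title of the study names chromosome pairing and the synaptonemal complex; the question here is whether the transcripts of crossover and checkpoint genes differed as well.

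In Drosophila females, programmed double-strand breaks are repaired from the homologous chromosome, and some of the repair intermediates become crossovers. Blm, a RecQ-family helicase, takes such intermediates apart without a crossover, and the mei-MCM complex, with Mei-218 and the MCM8-like protein Rec, opposes Blm. Mei-9 (the fly XPF) and Ercc1 form an endonuclease that, with the OB-fold protein Hdm, is needed to make most meiotic crossovers. When breaks persist, Mei-41 (the fly ATR kinase), the clamp that includes Rad9 and Hus1-like, and Lok (the fly Chk2 kinase) signal a checkpoint that disturbs oocyte development.

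The targeted gene differed between the groups as labelled. Atx2 (FBgn0041188) was at 245, 211, 269 and 209 CPM (counts scaled to a common library total by TMM) in Atx2 KD replicates 1 to 4 and at 391, 445 and 424 CPM in control replicates 1 to 3. It fell by 44.5% (log2 fold change -0.85 ± 0.10 SE; edgeR adjusted p 0.00166). Library totals ran from 65262402 to 101809997 estimated counts, so 3 counts corresponded to between 0.0295 and 0.0460 CPM. Cell type marker lists also differed between the groups. The summed level of 11 germline markers, of 12 in the list, was 1811 to 2344 CPM in Atx2 KD and 2594 to 3213 CPM in the controls, but its members went both ways, with 5 called lower and 2 higher by edgeR. That of 11 eggshell and yolk genes of late follicle cells was 3279 to 19071 CPM against 18381 to 36604 CPM, with 6 called, all lower. The 11 somatic ovary markers summed to 1439 to 1704 CPM against 1179 to 1548 CPM, with 2 called, both higher. Summed levels of 4 muscle markers were 278 to 389 CPM against 141 to 212 CPM, with 3 called, all higher, and those of 4 haemocyte markers were 311 to 830 CPM against 172 to 358 CPM, with 1 called, higher. For comparison, edgeR called 5.61% of all genes tested higher and 7.67% lower. No marker of any list was at 0 in all libraries. The part of these shifts in the results below was not tested by separating cell types, and in such bulk samples fewer cells of a type and less RNA per cell cannot be told apart.

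With Atx2 knocked down, 1 of the 10 genes passed an edgeR adjusted p of 0.05. This was Hus1-like, a clamp subunit gene, which rose by 31.6%. lok and rec lay 27.9% and 18.9% lower in Atx2 KD without passing in the comparison of the groups alone; both fell in the fit that also held the replicate number. The other 7 passed in neither fit. Across the genome edgeR's quasi-likelihood test called 1396 of 10514 genes, or 13.3%, with 5.61% higher and 7.67% lower, so 1 of 10 lies near the background share. At an unadjusted p under 0.05, 3 of the 10 passed, beside 30.6% of all genes tested, so that count too is at the background share. The median log2 fold change of the 10 was -0.11, beside 0.01 over all genes tested, and the individual values ran from -0.47 to 0.40. With the replicate number as a block 28.0% of all genes were called, 13.8% higher and 14.2% lower, and 3 of the 10 genes, 1 higher and 2 lower. In that fit Atx2 KD replicate 4, which has no control of its number, adds nothing to the difference between the groups. In CPM, the libraries of each group were fully apart for 1 of the 10, Hus1-like, beside 27.4% of all genes tested.

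**Figure D1:**
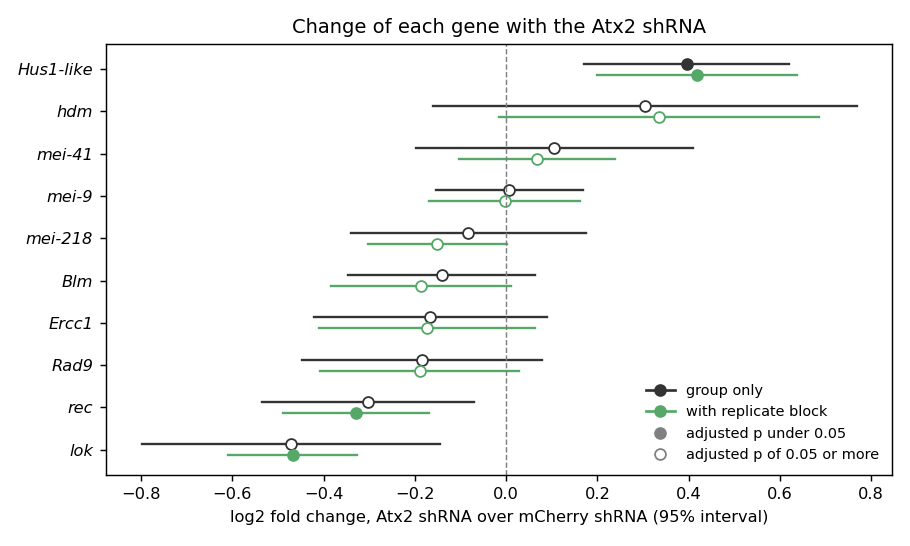
Log2 fold change of each gene, Atx2 KD over Control KD, with its 95% confidence interval as a line, from edgeR with the group alone (dark) and with the replicate number as a block (green); filled points have an adjusted p under 0.05. Hus1-like lies above 0 at 0.40 and 0.42 and is filled in both fits, and lok and rec lie below 0 and are filled in the fit with the block.

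Levels of different genes were compared as TPM, which takes the length of each transcript into account and gives every library the same total. In the controls lok stood far above the rest at 155 ± 27.7 TPM (SD, n = 3), at the 93.9th percentile of the genes tested. mei-218 followed at 34.3 ± 4.27 TPM and Blm at 21.95 ± 1.28 TPM, and the ranges of these neighbours did not overlap. A middle group of mei-41, Ercc1, rec, mei-9 and Hus1-like had mean levels between 16.3 and 17.4 TPM, and each overlapped its neighbour in that order. Rad9, at 13.01 ± 1.06 TPM, lay below the middle group's last gene, Hus1-like, in all 3 control libraries. hdm was lowest at 4.33 ± 1.37 TPM, at the 31.4th percentile.

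In Atx2 KD the order had the same ends. lok was at 116 ± 15.2 TPM (SD, n = 4), mei-218 at 33.8 ± 6.39 TPM and hdm at 5.498 ± 1.06 TPM. Hus1-like, the eighth of the 10 in the controls, was the third here, at 22.5 ± 0.622 TPM. Its range there, 21.9 to 23.3 TPM, overlapped that of Blm, the next gene. Between mei-218 and Hus1-like and between Rad9 and hdm the ranges were apart, as they were between lok and mei-218. All other neighbours overlapped.

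**Figure D2:**
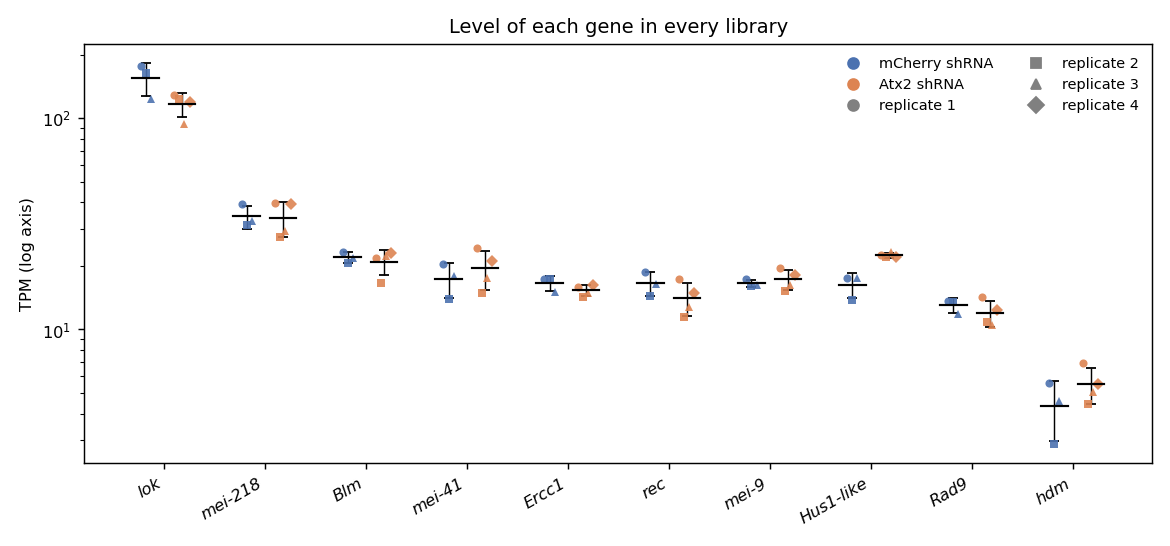
TPM of each of the 10 genes in each library on a log axis, with a point per library (mCherry shRNA, 3 Control KD; Atx2 shRNA, 4 Atx2 KD), the group mean as a line and the SD as an error bar. lok is highest in every library and hdm lowest, and for Hus1-like every Atx2 KD point lies above every control point.

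Of the mei-MCM genes, mei-218 (FBgn0002709) lies on X at 17135985 to 17142990, minus strand, in the BDGP6.54 annotation. Its levels were 146, 116, 115.1 and 148 CPM in Atx2 KD and 153, 135 and 130 CPM in the controls. The groups overlapped, with 2 of the knockdown libraries inside the control range and the other two below it. On the log2 scale the difference was -0.08 ± 0.11 (SE), with a 95% interval from -0.34 to 0.17 (edgeR adjusted p 0.664). mei-218 shares 5005 of its 6310 exon bases, or 79.3%, with mei-217 on the same strand. Its main transcript, FBtr0100640, also has 5005 exon bases. mei-217, the third mei-MCM gene, is read from the same locus and was not analysed here, so the values of mei-218 can hold reads that either gene could have given.

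rec (FBgn0003227) lies on 3R at 15823019 to 15832632, minus strand. It was at 37.1, 28.4, 29.5 and 33.4 CPM in Atx2 KD replicates 1 to 4 and at 42.4, 36.9 and 39.5 CPM in control replicates 1 to 3. In Atx2 KD 3 of 4 libraries were below every control, and replicate 1 lay just above the lowest control. Mean levels were 32.1 ± 3.97 CPM in Atx2 KD (SD, n = 4) against 39.6 ± 2.77 CPM (SD, n = 3). The log2 fold change of -0.30 ± 0.10 (SE) had a 95% interval from -0.54 to -0.07 and missed the threshold in edgeR (adjusted p 0.0840). Blocking on the replicate number gave -0.33 ± 0.07 (SE) and an edgeR adjusted p of 0.00989. Without Atx2 KD replicate 1 and with no block it also passed, at -0.38 and an adjusted p of 0.0386. These were the only 2 of 18 alternative settings in which rec passed. With a single library left out its edgeR adjusted p ran from 0.0386 to 0.278, and limma on log2(TPM + 1) gave 0.389. Of rec's 4131 exon bases, 1100, all in its 3' UTR, lie opposite exons of alpha-Man-IIb, and whether the reads were assigned by strand is not given in the sources used here. alpha-Man-IIb itself had a log2 fold change of -0.06 and an edgeR adjusted p of 0.679.

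The crossover nuclease genes gave no call. mei-9 (FBgn0002707, X, 4314230 to 4318801, minus strand) was the most even of the 10, at 42.8 to 48.4 CPM in Atx2 KD and 43.8 to 46.6 CPM in the controls. Its log2 fold change was 0.01 ± 0.07 (SE), with a 95% interval from -0.15 to 0.17. Ercc1 (FBgn0028434; 2R, plus strand, 14852941 to 14853948) was measured at 8.46, 8.98, 8.53 and 8.95 CPM in Atx2 KD and at 9.61, 11.0 and 8.80 CPM in the controls. The lowest control lay within the knockdown range. Its log2 fold change was -0.17 ± 0.11 (SE; 95% interval -0.42 to 0.09; edgeR adjusted p 0.357).

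hdm (FBgn0029977, X, 7918517 to 7920131, minus strand), which encodes the partner of the nuclease, was at 6.43, 4.85, 5.05 and 5.30 CPM in Atx2 KD and at 5.37, 3.13 and 4.64 CPM in the controls. Control replicate 2 lay below all other libraries. A log2 fold change of 0.30 ± 0.21 (SE; edgeR adjusted p 0.357) came with the widest 95% interval of the 10 genes, from -0.16 to 0.77. A rise of the size seen for Hus1-like lies inside that interval.

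Blm (FBgn0002906, 3R, 11736810 to 11741783, minus strand), the gene for the anti-crossover helicase, was at 74.9, 64.8, 80.6 and 81.5 CPM in Atx2 KD and at 84.7, 83.4 and 81.4 CPM in the controls. The controls spanned a narrow range, and 1 knockdown library, replicate 4, reached it. This gave a log2 fold change of -0.14 ± 0.09 (SE; 95% interval -0.35 to 0.06; edgeR adjusted p 0.332).

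Among the checkpoint genes, mei-41 (FBgn0004367; X, plus strand, 16391698 to 16399850) encodes the sensor kinase. Levels of 141, 100, 109 and 127 CPM were measured in Atx2 KD and 124, 94.7 and 114 CPM in the controls. The groups overlapped widely. Atx2 KD differed by a log2 fold change of 0.11 ± 0.13 (SE; 95% interval -0.20 to 0.41; edgeR adjusted p 0.636).

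lok (FBgn0019686, 2L, 20061422 to 20064381, plus strand) encodes the effector kinase. It was at 181, 200, 142 and 174 CPM in Atx2 KD replicates 1 to 4 and at 264, 271 and 191 CPM in control replicates 1 to 3. Control replicate 3 was the low control and lay inside the knockdown range, while Atx2 KD replicate 3 was the lowest of all. Mean levels were 174 ± 24.3 CPM in Atx2 KD (SD, n = 4) against 242 ± 44.6 CPM (SD, n = 3). The log2 fold change of -0.47 ± 0.14 (SE) had a 95% interval from -0.80 to -0.14 and missed the threshold in edgeR (adjusted p 0.0625). Blocking on the replicate number left the size at -0.47 with a smaller error of 0.06 (SE) and an edgeR adjusted p of 0.00104. Without control replicate 3 and with no block lok passed as well, at -0.62 and an edgeR adjusted p of 0.0164. DESeq2 called it with an adjusted p of 0.0124. These were the only 3 of 18 alternative settings in which lok passed. With a single library left out its edgeR adjusted p ran from 0.0164 to 0.215. With a covariate for eggshell and yolk genes it was 0.549.

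Rad9 and Hus1-like encode subunits of the checkpoint clamp; the gene of its other subunit, Rad1, was not analysed here. Rad9 (FBgn0025807, 3L, 18870045 to 18872553, minus strand) was at 12.9, 11.4, 10.2 and 11.6 CPM in Atx2 KD and at 13.1, 14.5 and 11.6 CPM in the controls. The groups overlapped only through control replicate 3. Its log2 fold change was -0.18 ± 0.12 (SE; 95% interval -0.45 to 0.08; edgeR adjusted p 0.324).

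Hus1-like (FBgn0026417, 3R, 4808336 to 4812096, minus strand) was at 13.5, 15.4, 15.01 and 13.7 CPM in Atx2 KD replicates 1 to 4 and at 11.3, 9.96 and 11.6 CPM in control replicates 1 to 3. All 4 knockdown libraries were above all 3 controls. Mean levels were 14.4 ± 0.909 CPM in Atx2 KD (SD, n = 4) against 10.95 ± 0.872 CPM (SD, n = 3), a rise of 31.6% with a 95% interval from 12.6% to 53.8%. On the log2 scale this was 0.40 ± 0.10 (SE; edgeR adjusted p 0.0333), and under the replicate block 0.42 ± 0.10 (SE; adjusted p 0.0135).

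The call for Hus1-like was close to the threshold. It was lost without any 1 of Atx2 KD replicates 2, 3 and 4 and control replicates 1 and 2, with log2 fold changes from 0.33 to 0.44 over the 7 left-out libraries and edgeR adjusted p-values from 0.0411 to 0.118. Of its 1169 exon bases, 230, or 19.7%, lie on the same strand as exons of ctrip and 114, or 9.75%, lie opposite Gmppb, all of them in its 5' UTR. The longer listed 5' UTR, of FBtr0334904, has 245 bases, so these stretches overlap each other. FBtr0078876, with 99.6% of the TPM in Atx2 KD and 98.7% in the controls, has a 5' UTR of 129 bases. It can thus hold only part of the ctrip stretch. ctrip, named for this overlap, is the far more abundant gene, with 1094 ± 88.3 CPM (SD, n = 3) in the controls and 1086 ± 130 CPM (SD, n = 4) in Atx2 KD, a log2 fold change of -0.01. Gmppb had a log2 fold change of -0.26 (edgeR adjusted p 0.146). Hus1-like was also among the 2629 genes tested with the shortest effective transcript length, taken as estimated counts divided by TPM. The median log2 fold change of these genes was 0.09, with 212 called higher and 89 lower. Ercc1, which was also among them, had -0.17. The part of this length in the rise of Hus1-like was not tested.

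Other genes of the 10 share exon bases with neighbours too. Exons of Blos3 lie opposite 14.0% of those of Rad9, Ciao1 opposite 9.05% of those of Ercc1 and vls opposite 4.96% of those of lok, and CG14721 opposite 1.41% of those of Blm. By edgeR, Blos3 rose (log2 fold change 0.42, adjusted p 0.0397), as did Ciao1 (0.45, adjusted p 0.0165), while CG14721 fell (-0.31, adjusted p 0.0305) and vls had -0.19 (adjusted p 0.135). mei-9 shares 10.6% of its exon bases with a noncoding RNA gene on its own strand. How reads from these stretches were divided is not given in the sources used here, and their part in the values of the 10 genes was not tested.

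Ratios of TPM within a library do not depend on how libraries are scaled to one another, and 6 ratios of partner genes were compared, each by a two-sided exact permutation test of the group labels (35 arrangements). The smallest p such a test can give is 0.0286. None of the 6 ratios passed after Benjamini-Hochberg adjustment over the 6 exact tests, and the smallest adjusted p was 0.0857.

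The clamp ratio of Hus1-like to Rad9 was 1.58, 2.04, 2.21 and 1.77 in Atx2 KD and 1.28, 1.02 and 1.49 in the controls. The groups did not overlap, and the mean log2 ratio was higher by 0.60 (exact p = 0.0286). In the 3 same-numbered pairs the difference was 0.31, 1.00 and 0.57.

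The mei-MCM ratio of rec to mei-218 was 0.438, 0.419, 0.435 and 0.379 in Atx2 KD and 0.478, 0.460 and 0.506 in the controls. These groups did not overlap either, with a log2 difference of -0.21 (exact p = 0.0286) and pair differences of -0.13, -0.14 and -0.22. Since mei-218 shares most of its exon bases with mei-217, this is a ratio to the listed value of mei-218.

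The kinase ratio of lok to mei-41 averaged 6.14 ± 1.42 (SD, n = 4) in Atx2 KD and 9.10 ± 2.44 (SD, n = 3) in the controls, with overlap through Atx2 KD replicate 2 and control replicate 3 (exact p = 0.0857). It was lower in all 3 same-numbered pairs, by log2 differences of -0.72, -0.50 and -0.36. Within the nuclease, Ercc1 to mei-9 was 0.893 ± 0.0538 (n = 4) against 1.00 ± 0.0797 (n = 3; exact p = 0.0571), and hdm to mei-9 was 0.316 ± 0.0269 against 0.261 ± 0.0745 (exact p = 0.2). In the 3 pairs Ercc1 to mei-9 differed by -0.30, -0.21 and -0.01 on the log2 scale and hdm to mei-9 by 0.14, 0.71 and 0.15. Blm to mei-9, the helicase to the nuclease, was 1.21 ± 0.133 against 1.33 ± 0.0323 (exact p = 0.314), with pair differences of -0.27, -0.25 and 0.03. With 3 pairs an exact test cannot go below p = 0.25. The groups overlapped in these 4 ratios.

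**Figure D3:**
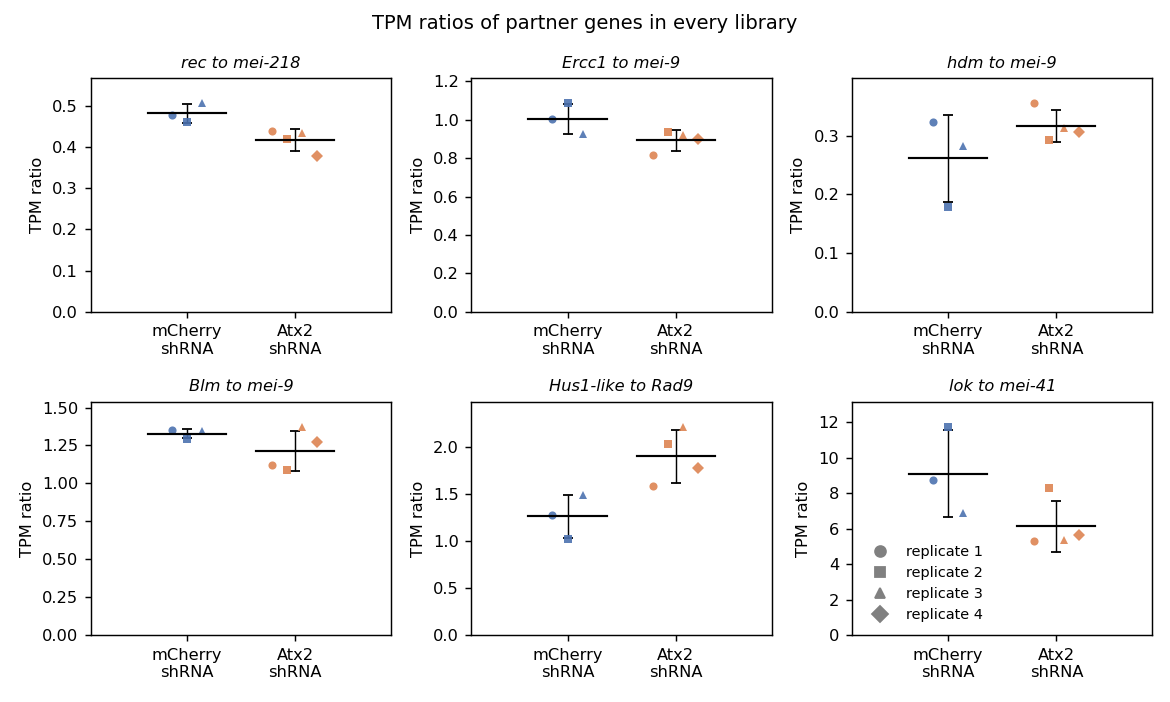
TPM ratio of partner genes in each library, on linear axes from 0, with a point per library (mCherry shRNA, 3 Control KD; Atx2 shRNA, 4 Atx2 KD), the group mean as a line and the SD as an error bar. The groups are apart for Hus1-like to Rad9 and for rec to mei-218 and overlap in the other 4 ratios.

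Libraries with the same replicate number shared part of their deviation, and the 10 genes differed in how much. Over replicates 1 to 3 of both groups, mei-41 had 89.5% of its sum of squares in log2 CPM between replicate numbers and 3.09% between the groups. mei-218 was similar, with 71.3% and 24.7%. Hus1-like stood at the other end, with 3.81% between numbers and 85.1% between groups. lok was divided, with 46.2% and 53.1%, and rec had 34.4% and 60.2%.

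The medians over the 10 genes were 46.8% for the replicate number and 38.8% for the group, beside 41.7% and 32.5% over all genes tested. The replicate number has 2 degrees of freedom here and the group 1, so each share is read against that of all genes and not against the other. What the replicate number marks is not given in the labels.

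**Figure D4:**
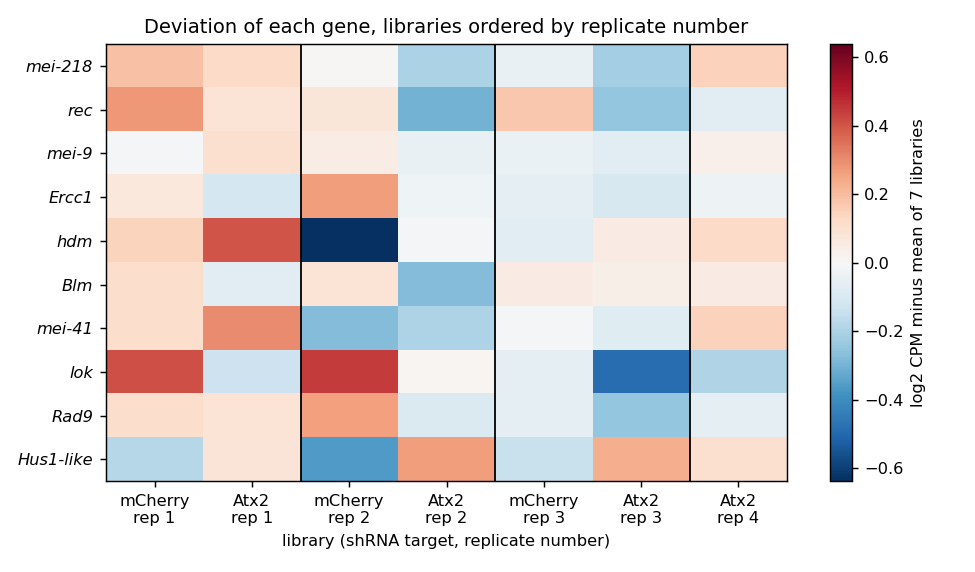
Heat map of log2 CPM minus the mean of the 7 libraries (colour) for each of the 10 genes (rows), with libraries (columns) ordered by replicate number and named by shRNA target, mCherry for Control KD. For mei-41 both libraries numbered 1 are above the mean and both numbered 2 below it, while for Hus1-like all 3 control libraries are below the mean and all 4 Atx2 KD libraries above it.

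Of the 20 transcripts of the 10 genes, 18 passed the count filter, and 4 genes had a single listed transcript. At the adjusted threshold edgeR called 0 of the 18, and again 0 in the blocked fit, beside 4.71% of the 21728 transcripts tested. At an unadjusted p under 0.05 there were 3 of the 18, beside 22.1% of all transcripts tested, 1 each of rec, lok and Hus1-like. The Hus1-like transcript FBtr0078876 had a log2 fold change of 0.42 ± 0.11 (SE) and an edgeR adjusted p of 0.0808, so the size matched that of the gene but missed the threshold over the larger table. The lok transcript FBtr0081329 was at -0.54 ± 0.18 (SE), with an edgeR adjusted p of 0.131.

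For rec, the listed transcripts share a coding region of 2655 bases and differ in the 3' UTR, which has 1458 bases in FBtr0083193 and 199 in FBtr0334595. The long form had 16.5, 14.2, 18.2 and 20.9% of rec's TPM in Atx2 KD and 20.1, 22.7 and 23.7% in the controls. Atx2 KD replicate 4 overlapped the control range. The long form had a log2 fold change of -0.62 ± 0.19 (SE) and an edgeR adjusted p of 0.113. Of its 3' UTR, 1100 bases lie opposite exons of alpha-Man-IIb, which was at 117 CPM in the controls. The part of this overlap in the long form's share was not tested.

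Each gene with several listed transcripts was mostly 1 form in both groups. For rec this was the short form, with 82.5% ± 2.84 (SD, n = 4) in Atx2 KD and 77.8% ± 1.85 (SD, n = 3) in the controls. For lok this was FBtr0081329, with 72.9% ± 2.35 (SD, n = 4) in Atx2 KD and 76.7% ± 2.65 (SD, n = 3) in the controls. For mei-218 it was FBtr0100640, with 76.7% ± 1.87 against 75.8% ± 3.17, and mei-9 was almost all FBtr0343574, with 97.8% against 97.4%. Unequal change among the transcripts of a gene, by diffSpliceDGE of edgeR, was called for 3.96% of the 5103 genes that could be tested. It was called for 0 of the 4 tested here (mei-218, rec, mei-9 and lok), and 0 of the 4 had an unadjusted p under 0.05. A limma test on log2 transcript shares also called 0 of the 4.

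**Figure D5:**
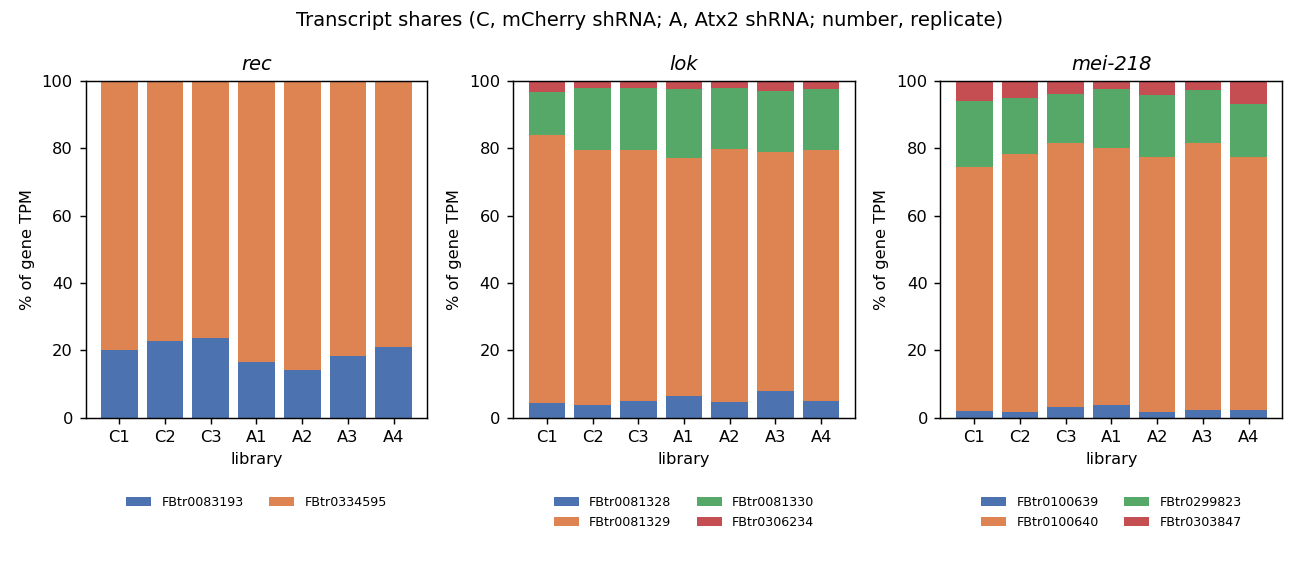
Share of each listed transcript in the TPM of rec, lok and mei-218, as stacked bars from 0 to 100% for each library (C, Control KD; A, Atx2 KD; the number is the replicate). The long rec form FBtr0083193 holds 14.2 to 20.9% in Atx2 KD and 20.1 to 23.7% in the controls.

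The genes that work beside these 10 were counted from lists drawn up by function. Among 14 crossover partners and anti-crossover helicases tested, of 16 in the list, 2 were called, both lower, and the median log2 fold change was -0.11. They were WRNexo, related to the exonuclease of human WRN, at -0.35 ± 0.08 (SE; edgeR adjusted p 0.0283), and the RecQ-family helicase gene RecQ4, at -0.25 ± 0.07 (SE; edgeR adjusted p 0.0482). mus312, whose product binds Mei-9, was not analysed here. With the replicate block 4 were called, all lower. Both counts lie near the shares of all genes called in either direction, 13.3% and with the block 28.0%. The shares of all genes called lower were smaller, 7.67% and with the block 14.2%.

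Genes that make the double-strand breaks and carry out strand exchange had a median of -0.28, with 4 of 14 called lower and 2 higher, beside 7.67% and 5.61% of all genes tested. The largest fall was that of mei-P22, which acts with the break-making enzyme, from 2.01 to 0.627 CPM, a log2 fold change of -1.68 ± 0.23 (SE; edgeR adjusted p 0.0031). mei-W68, the fly Spo11 that cuts the DNA, had a log2 fold change of -0.37 (edgeR adjusted p 0.0437). The RING-finger genes narya and nenya had log2 fold changes of -0.72 (edgeR adjusted p 0.0301) and -0.47 (0.0482). Of the genes called higher, mre11, which encodes a nuclease that trims break ends, had a log2 fold change of 0.30 (edgeR adjusted p 0.0490). With the replicate block 8 of the 14 were called lower and 2 higher, beside 14.2% and 13.8% of all genes tested.

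Among 15 further checkpoint genes, of 16 listed, 2 were called, both higher, around a median of 0.03. This count equals the share of 13.3% of all genes tested called in either direction, while 5.61% were called higher. RPA3, for a subunit of the single-strand DNA-binding protein RPA, had a log2 fold change of 0.46 (edgeR adjusted p 0.0109). pch2, which encodes an ATPase of the meiotic pachytene checkpoint, had 0.25 (edgeR adjusted p 0.0435). With the replicate block 2 of the 15 were called higher and 1 lower, beside 13.8% and 14.2% of all genes tested. Of 7 replicative MCM genes, relatives or partners of the family to which Rec belongs, 1 was called, beside 13.3% of all genes tested. This was Mcm10, with a log2 fold change of -0.41 (edgeR adjusted p 0.0201), and the median of the 7 was -0.20. Of all genes tested 7.67% were called lower. The block raised the count to 4 of the 7, all lower, beside 14.2% of all genes tested that were called lower. Of 8 nucleotide excision repair genes, the other pathway in which Mei-9 and Ercc1 cut DNA, edgeR and DESeq2 each called 0. Over all genes tested edgeR called 13.3% and DESeq2 2151 of 10514. At an unadjusted edgeR p under 0.05 there were 2 of the 8, beside 30.6% of all genes tested, and their median was -0.02. Under the replicate block 1 of these 8 was called higher and 1 lower, beside 13.8% and 14.2% of all genes tested. Several of these calls lay near the threshold. Over 18 alternative settings mei-P22 and RPA3 lost their call in 1 each, Mcm10 in 5, WRNexo in 7, and narya, nenya, mei-W68, RecQ4, mre11 and pch2 in 10 to 14.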

How the data were processed

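RNA-seq of sorted ovarian cells gave 4 Atx2 KD and 3 Control KD libraries. Per the submitters' processing notes, bcl2fastq 2.20, Trim Galore 0.6.7, cutadapt 2.10 and Salmon 1.9.0 were used; index, genome build, annotation release and strand setting are not given in the sources used here. The deposited estimated counts and TPM per gene and per transcript are, per the labels, the authors' Salmon values, not normalized between libraries. Positions come from the Ensembl release 115 annotation of BDGP6.54, matched by FlyBase ID.

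Estimated counts were rounded, filtered with filterByExpr (minimum count 10, minimum total 15), scaled by TMM and fitted over all genes with the two-sided quasi-likelihood test of edgeR 4.0.16 (R 4.3.3), with Benjamini-Hochberg adjustment at 0.05; transcripts likewise. The SE is the log2 fold change divided by the square root of F. Alternatives used DESeq2 1.42.0 and limma 3.58.1, on log2(TPM + 1) and log2(TPM + 0.1) for TPM. The steps were tested on simulated data. These held no effect shared by same-numbered libraries, so they could not test how the block handles one. The named genes are the 10 genes, Atx2, overlapping genes, and genes of the pathway lists with an adjusted p under 0.05, of which 1 is not reported here. Genes and lists were chosen with earlier results of these data known.

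Replicate numbers come from the sample titles. Deviations from the group means correlated between same-numbered libraries (Pearson r 0.133, 0.284 and 0.476 over 10514 genes). Between different numbers r ranged from -0.340 to 0.142. Replicates 1 of both groups, at 0.133, correlated less than Atx2 KD replicate 2 with control replicate 1, at 0.142. The numbers were used as a block on the basis of these same data, and the labels state no pairing. Atx2 KD replicate 4 has no control of its number, so the blocked group difference rests on the other libraries. The calls of lok and rec in the blocked fit rest on that choice. Replicates of a group differed beyond counting noise (chi-square per degree of freedom 45.6 to 236). Floors cover counting error only.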

Additional observations from a re-analysis of the deposited data

Results flagged for a closer look

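Of 44 sets of 4 Atx2 KD values examined for a library far from the other three, 4 stood out, and chance alone marks about 5% of such sets. Blm was at 16.6 TPM in Atx2 KD replicate 2, below the other Atx2 KD libraries, and its only listed transcript, FBtr0082434, has the same value of 16.6 TPM. The ratio of lok to mei-41 was 8.26 in Atx2 KD replicate 2, above the other Atx2 KD libraries. The lok transcript FBtr0081329 was at 66.8 TPM in Atx2 KD replicate 3, below the other Atx2 KD libraries.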

How the results depend on the processing

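Against 1396 genes called, DESeq2 called 2151, the replicate block 2941, a covariate for the mean level of eggshell and yolk genes 184 and libraries numbered 1 and 2 only 627; leaving out 1 library gave 467 to 1454. Of the 10 genes 1 was called, against 2 with DESeq2, 3 with the block, 0 with the covariate, 0 with libraries 1 and 2, and 0 to 2 with a library left out. Hus1-like had adjusted p-values of 0.159 with the covariate and 0.147 with libraries 1 and 2, and was lost in 7 of 18 alternatives; its log2 fold change was 0.33 to 0.50. Those of lok ran from -0.62 to -0.33 and those of rec from -0.63 to -0.22. lok was called in 3 of the 18 alternatives and rec in 2. Transcript calls numbered 1023, 654 with the block and 159 to 814 with a library left out. Unequal transcript change was called for 202 genes, 125 by limma on shares and 132 to 210 with a library left out. Signs turned for mei-9 (0.01; -0.0033 with the block, -0.0897 with the covariate, -0.0239 to 0.0328 with a library left out), hdm (-0.12 with the covariate) and mei-41 (-0.34 with the covariate). The covariate itself differs between the groups; the cause of the other shifts was not tested. The block changed no call among the 10 genes other than those of lok and rec.

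Of the calls over all genes 42.3% were higher, with 590 higher and 806 lower, but under upper-quartile scaling 811 were higher and 600 lower, and on log2(TPM + 1) 688 and 438. The median of the 10 genes lay between -0.30 and -0.05 in all alternatives. With 3 controls, changes of a size inside the 95% intervals given were not excluded for the uncalled genes.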
